A study of Mus musculus with 2 samples.

Results

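Mir191 and Mir425 are a pair of microRNA (miRNA) hairpin genes that lie close together on mouse chromosome 9. They were taken by gene symbol from the deposited count tables, and both were found: 2 of the 2202 miRNA genes counted, and 2 of the 339 with at least 10 reads in each library. The tables come from microRNA sequencing of total RNA from adrenal glands of female B6CASTF1/J mice, the first-generation hybrid of C57BL/6J and CAST/EiJ, at 18 to 20 months of age. There was 1 group of 2 biological replicates, and the labels record no treatment and no engineered allele. Each replicate was a separate tissue sample. Both were entered under a single donor record, so every SD below measures how far these samples differ, which may be partly technical. With no second condition, the comparisons that the data allow are between the 2 genes, between the 2 libraries and with other miRNA genes.

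A miRNA gene is transcribed into a long primary RNA, from which a hairpin is cut and then trimmed to a short duplex. An Argonaute protein keeps a single strand of the duplex and uses bases 2 to 8 of it, the seed, to find target messenger RNAs. miR-191 and miR-425 are conserved in mammals and are usually described as co-transcribed from the gene Dalrd3, whose protein takes part in the methylation of certain transfer RNAs. miR-191 is abundant in many tissues and has been used as a reference RNA for normalising miRNA assays. Where hairpins share a primary RNA, the amounts of the mature miRNAs can still differ, because trimming, loading and decay act on each one separately.

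The mature sequences are given first because they show that the pair shares its position but not its targeting sequence. They are from RefSeq (GRCm38.p6), written 5′ to 3′, with the seed in capitals.

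miR-191-5p: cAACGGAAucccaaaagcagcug

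miR-191-3p: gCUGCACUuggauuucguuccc

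miR-425-5p: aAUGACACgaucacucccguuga

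miR-425-3p: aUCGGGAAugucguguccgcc

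The 4 seeds are all different. The 5p arms of the pair have the same base at 5 of 23 positions counted from the 5′ end, and the 3p arms at 6 of 21. The seeds of miR-191-5p, miR-191-3p and miR-425-3p occur in no other mature mouse miRNA of the RefSeq table. The seed of miR-425-5p is shared with miR-489-3p alone. Mir489, the gene of miR-489-3p, had 0 counts in both libraries, which allows up to 1.16 counts per 1000000 counts of miRNA genes (CPM) in replicate 1 and 1.31 CPM in replicate 2 (a limit of 3 counts).

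The hairpins that the reads were counted against are shown next, with the mature arms in capitals, since the tables count reads per hairpin gene and do not separate the arms.

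Mir191 hairpin: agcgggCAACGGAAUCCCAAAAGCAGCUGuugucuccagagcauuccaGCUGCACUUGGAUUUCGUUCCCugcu

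Mir425 hairpin: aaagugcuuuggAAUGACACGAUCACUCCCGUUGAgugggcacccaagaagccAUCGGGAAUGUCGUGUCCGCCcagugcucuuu

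The Mir191 hairpin (ENSMUSG00000105497.1) is 74 bases long at chr9:108568319-108568392 on the plus strand, and the Mir425 hairpin (ENSMUSG00000065579.1) is 85 bases long at chr9:108568777-108568861 on the same strand (mm10, GENCODE M21). The hairpins have nearly the same base composition, with 54.1% G and C in each. Their predicted minimum free energies were -35.0 kcal/mol for Mir191 and -31.7 kcal/mol for Mir425, with 56 paired bases in each hairpin (ViennaRNA). Neither hairpin shares a run of 18 bases with a miRNA gene elsewhere in the annotation. By contrast, 1135 of the 2202 genes do share such a run.

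The hairpins are separated by 384 bases, and whether they lie in Dalrd3 depends on the annotation. In GENCODE M21 Dalrd3 spans chr9:108569886-108572774 on the plus strand, begins 1024 bases after the end of Mir425 and contains neither hairpin. Both hairpins lie in a long intergenic non-coding RNA gene of the same strand, 4833445I07Rik (ENSMUSG00000103103.1), at chr9:108567533-108569174. They are inside the only exon of its longer transcript. In the shorter transcript, which has 2 exons, Mir191 falls in the intron and Mir425 lies beyond the 3′ end. In RefSeq, Dalrd3 spans chr9:108567484-108572773, begins 835 bases before Mir191 and contains both hairpins. Another miRNA gene, Gm24083 (ENSMUSG00000092915.1), overlaps Mir191 on the minus strand at chr9:108568295-108568414 and holds the reverse complement of the whole Mir191 hairpin.

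**Figure D1:**
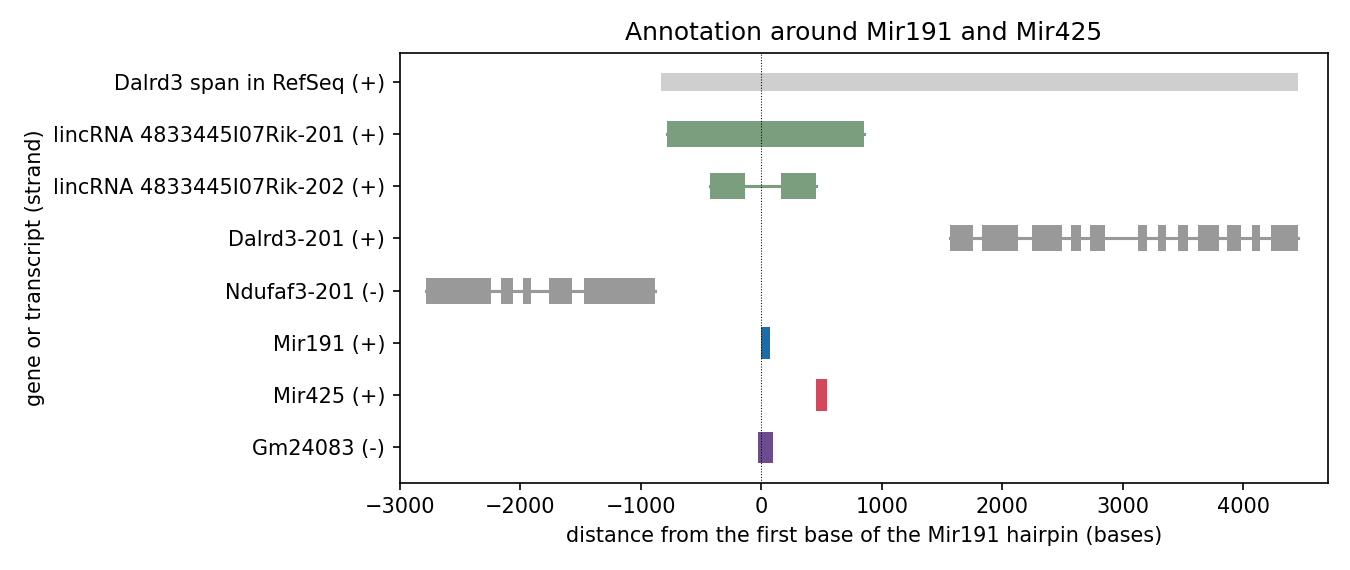
Genes and transcripts by distance in bases from the first base of the Mir191 hairpin, with exons as thick bars and strands in parentheses. Mir191 and Mir425 lie inside the single-exon transcript of 4833445I07Rik and inside the RefSeq span of Dalrd3, outside the GENCODE transcript of Dalrd3, and Gm24083 covers Mir191 on the opposite strand.

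No other detected miRNA gene lay near the pair. The 4 nearest miRNA genes other than Gm24083 were Gm26298, Gm23156, Mir711 and Gm47303, at 84746 to 465072 bases, and all had 0 counts in both libraries. The nearest gene with at least 10 counts in each library was Mir6236, 1712425 bases after Mir425. The nearest on the other side was Mirlet7g, a let-7 gene, 2389391 bases before Mir191.

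The own-strand counts of all miRNA genes summed to 2590051 in replicate 1 and 2291030 in replicate 2, which were 26.4% and 32.8% of the reads in each table. Unmapped reads made up 40.6% and 29.8%, reads aligned to several places 24.0% and 28.0%, and reads in no miRNA gene 8.94% and 9.44%. No miRNA on the marker lists used here marks the adrenal cortex alone, so the labelled tissue could be checked only for other cell types. Markers of neuroendocrine cells, which the adrenal medulla contains, summed to 65782 and 56378 CPM. Of the 4 listed, 2 were measured, Mir375 and Mir7b, and the symbols Mir7a-1 and Mir7a-2 matched no gene. Mir375 gave most of the sum, at 62443 and 54040 CPM. Mir122, the liver marker, had 1611 counts in replicate 1 and 1608 in replicate 2. Striated muscle markers were present, mostly in replicate 1: Mir206 had 737 counts in replicate 1 and 182 in replicate 2, Mir499 420 and 3, Mir208a 231 and 0, and Mir208b 157 and 1. Of the 9 listed, Mir1a-1, Mir133a-1, Mir133a-2 and Mir133b were at 0 in both libraries, but each of these shares 18 bases with another hairpin, so a count of 0 does not show that the miRNA was absent.

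Mir191 had the higher counts of the pair, at almost the same level in both libraries. It had 20638 counts in replicate 1, or 7968 CPM (95% interval by Wilson's method 7861 to 8077). Replicate 2 gave 17999 counts, or 7856 CPM (7743 to 7971). The intervals overlap. Its mean was 7912 ± 79.1 CPM (SD, n = 2), which is 0.791% of all miRNA counts, and it ranked 25 of all miRNA genes by count in replicate 1 and 26 in replicate 2. These intervals, like all others here, treat reads as independent and cover counting error only. PCR copies are not independent molecules, so the intervals can be too narrow even for that.

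Mir425 had lower counts than Mir191 and differed between the libraries. It had 2858 counts in replicate 1, or 1103 CPM (95% interval by the same method 1064 to 1145). Replicate 2 gave 1528 counts, or 667 CPM (634 to 701). Replicate 1 was the higher library, and the intervals do not overlap. The mean was 885 ± 309 CPM (SD, n = 2), or 0.0885% of miRNA counts, with rank 74 in replicate 1 and 94 in replicate 2. In whole-tissue RNA, fewer cells of a type and less RNA per cell cannot be told apart, and this holds for every level given here.

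The order of levels around each gene showed how much of that order rests on the spread. The 3 genes above Mir191 in mean CPM were Mir30d (10222 ± 1509), Mir29a (9964 ± 2423) and Mir151 (9334 ± 404). The 3 below it were Mir125a (7345 ± 765), Mir322 (7306 ± 485) and Mir30a (7181 ± 768; all SD, n = 2). Of these 6, only Mir125a had library values that overlapped those of Mir191, at 7886 CPM in replicate 1 and 6804 CPM in replicate 2.

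Mir425 had no such separation from its neighbours. Above it stood Mir298 (935 ± 409 CPM), Mir337 (922 ± 212) and Mir540 (905 ± 146), and below it Mir27a (878 ± 306), Mir15a (874 ± 519) and Mir1839 (857 ± 520; all SD, n = 2). All 6 had library values that overlapped those of Mir425, so its place at rank 82 by mean CPM is not separated from theirs.

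**Figure D2:**
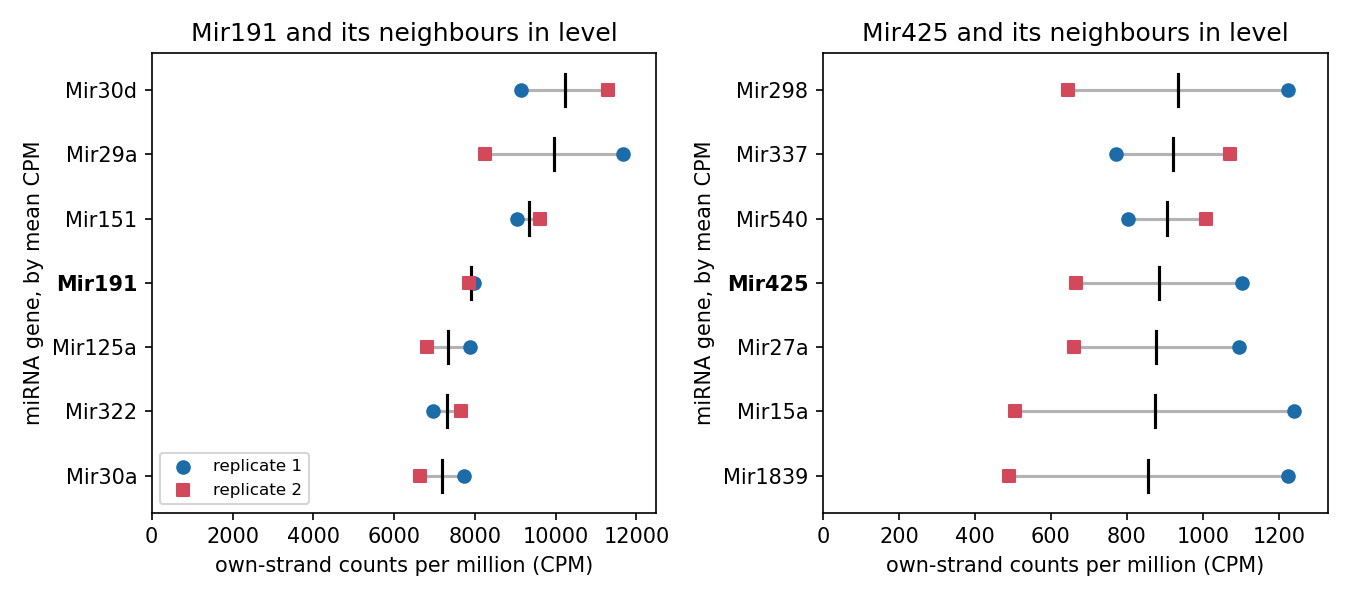
Own-strand CPM in replicate 1 (circles) and replicate 2 (squares) for Mir191 and Mir425 (bold) and the 3 genes above and below each in mean CPM, with a black tick at the mean of the 2 libraries. The values of Mir191 nearly coincide, at 7968 and 7856 CPM, whereas those of Mir425 are apart, at 1103 and 667 CPM.

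The ratio of Mir191 to Mir425 within a library needs no scaling between libraries. Mir191 had 7.22 counts for each count of Mir425 in replicate 1 (95% interval 6.94 to 7.51) and 11.8 in replicate 2 (11.2 to 12.4). Replicate 2 had the higher ratio, and the intervals do not overlap. The mean ratio was 9.50 ± 3.22 (SD, n = 2). This is a ratio of read counts. Whether both sequences were captured equally well in the libraries was not tested, so it need not equal the ratio of the RNA amounts. Divided by hairpin length, counts per base of Mir191 were 8.29 times those of Mir425 in replicate 1 and 13.5 times in replicate 2. The labels give a size range below 30 bases, shorter than either hairpin, so counts need not scale with hairpin length. This division is therefore not a correction. The hairpins are 74 and 85 bases long, so it could not have changed the order of the genes.

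The ratio was higher in replicate 2 by a factor of 1.63 (95% interval 1.53 to 1.74), or 0.71 on the log2 scale (two-sided Fisher's exact test on the 4 counts, p = 2.0e-50). This test compares the reads of these 2 libraries, with counting error only, and says nothing of a condition. Mir191 made up 87.8% of the reads of the pair in replicate 1 (Wilson's 95% limits 87.4% and 88.2%) and 92.2% in replicate 2 (91.8% and 92.5%). The summed level of the pair was less different, at 9072 CPM in replicate 1 and 8523 CPM in replicate 2 (mean 8797 ± 388, SD, n = 2).

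The genes were then set against the differences of all miRNA genes between the libraries. The test was an exact conditional binomial test on the counts, two-sided, with library sizes scaled by edgeR's TMM factors and Benjamini-Hochberg adjustment over the 367 genes with a summed count of at least 20. Of these genes, 62.7% passed an adjusted p under 0.05, 119 of them with the higher level in replicate 1 (32.4% of those tested) and 111 with the higher level in replicate 2. With TMM factors computed over all annotated genes, a setting added after the data were seen, the numbers were 139 and 85, and the median of all tested genes moved from 0.02 to -0.12. A call was therefore the usual outcome at this depth, and the size of a difference tells more than its p.

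Mir425 was called higher in replicate 1, with a log2 ratio of replicate 2 over replicate 1 of -0.69 (95% interval -0.78 to -0.60, exact test, adjusted p = 1.67e-52), a 1.61-fold difference. Its absolute log2 ratio was larger than that of 240 of the 367 tested genes and smaller than that of 126. The median absolute log2 ratio over all tested genes was 0.46. Among the 119 genes with a mean count of at least 1000, where counting error is smaller, the median was 0.40, and 89 genes had a smaller difference than Mir425 and 29 a larger one.

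Mir191 was not called, with a log2 ratio of 0.02 (95% interval -0.01 to 0.05, exact test, adjusted p = 0.319), and the sign turned with the scaling, to -0.08 with DESeq2 size factors (adjusted p = 7.77e-07), -0.02 with total counts (adjusted p = 0.223) and -0.12 with TMM factors over all genes (adjusted p = 1.33e-14). A scaling moves every gene by the same amount, so the distance of a gene from the median log2 ratio is the same under all of them. That distance depends on which genes enter the median. Over the 367 tested genes Mir191 was 0.00095 above the median, and 1 gene was closer to it. Its distance was -0.018 with no minimum count, 0.033 with a minimum of 200 summed counts and -0.025 without genes that share 18 bases, and 11, 10 and 7 genes were then closer. The distance of Mir425 was -0.70 over the 367 genes and between -0.73 and -0.67 with those other sets of genes.

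**Figure D3:**
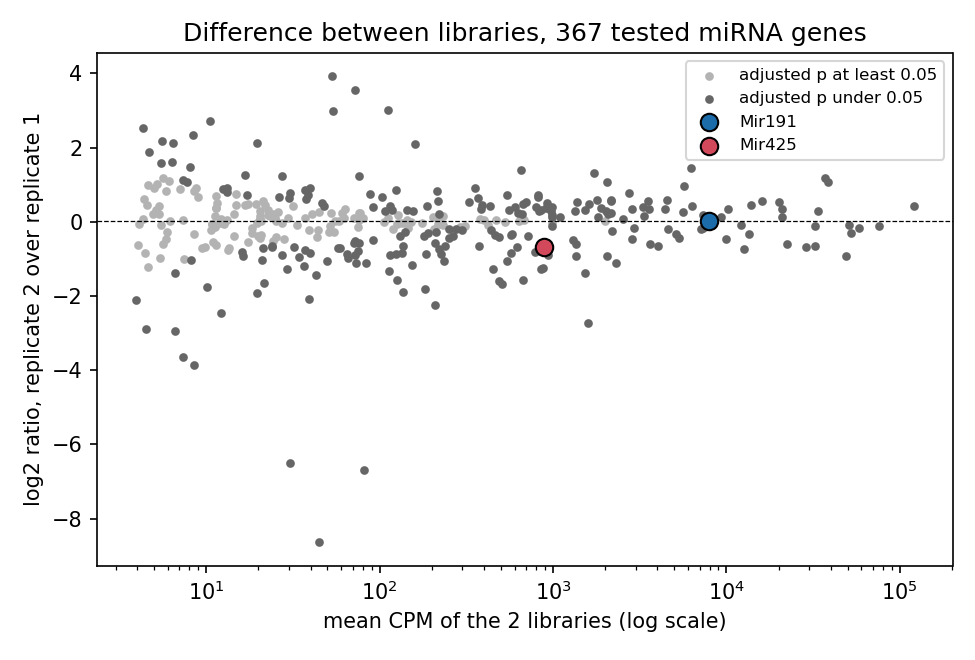
Log2 ratio of replicate 2 over replicate 1 against mean CPM (log scale) for the 367 tested miRNA genes, with genes past an adjusted p of 0.05 in dark grey and the median of all as a dashed line. Mir191 sits on the line at 0.02, a value that turns to between -0.12 and -0.02 under other scalings, and Mir425 sits below it at -0.69.

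Among genes with a mean count of at least 1000, those with the log2 ratio nearest to that of Mir191 were Mir676, at 5202 counts in replicate 1 and 4544 in replicate 2, Mir342 and Mir150. Their log2 ratios were 0.02, 0.01 and 0.00. Mir342 and Mir150 are abundant in lymphocytes. Those nearest to Mir425 were Mir27a (2835 and 1515 counts), Mir21a (92558 and 49389) and Mir181c (1983 and 1070), with log2 ratios of -0.69, -0.69 and -0.68. Likeness here is the absolute difference in log2 ratio over 2 libraries only, so many genes can be alike by this measure.

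Several cell type markers were higher in replicate 1, the library in which Mir425 was higher. Mir126a, the endothelial marker, had 64752 CPM in replicate 1 and 33413 CPM in replicate 2. Summed markers of smooth muscle and mesenchyme had 31237 and 20684 CPM, of erythroid cells 902 and 490 CPM, and of striated muscle 598 and 81.2 CPM. By the exact test, 3 of 4, 2 of 3 and 4 of 4 tested members of these lists were higher in replicate 1, against 32.4% of all tested genes. Mir499 (420 and 3 counts), Mir208a (231 and 0), Mir208b (157 and 1) and Mir199a-2 (36 and 2) reached the summed count of 20 through replicate 1 alone. For them, being tested and being higher in replicate 1 are nearly the same condition, so their calls cannot be set against that share. Mir143 gave most of the smooth muscle and mesenchyme sum, at 27092.1 CPM in replicate 1 and 17510.5 CPM in replicate 2. Mir145a of the same list was higher in replicate 2, at 1350 and 2765 CPM. The neuroendocrine markers Mir375 and Mir7b were also both higher in replicate 1, with log2 ratios of -0.17 and -0.48. Epithelial markers went the other way, at 1192 and 1871 CPM (4 of 5 tested members higher in replicate 2), and leukocyte markers were at 3045 and 2955 CPM. Of the epithelial markers, Mir200b (19 and 73 counts) and Mir141 (6 and 24) in turn reached the summed count of 20 through replicate 2. Mir122, the liver marker, was higher in replicate 2, at 622 and 702 CPM (log2 ratio 0.21). The part of all these cell types in the Mir425 difference, and that of the share of unmapped reads, was not tested.

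Because Mir191 is in use as a reference RNA, it was compared with 20 miRNA genes that are also in wide use for that purpose, all of them measured. Of the 20, 11 were higher in replicate 2, 6 higher in replicate 1 and 3 did not pass. Over all 367 tested genes these numbers were 111, 119 (32.4%) and 137. The log2 ratios of the 20 ran from -1.31 (Mir26a-1) to 0.56 (Mir423), with a median of 0.21, against 0.02 over all tested genes. With TMM factors over all genes the numbers for the 20 were 9, 6 and 5 and the median 0.08. None of the 20 was closer to the median of the 367 tested genes than Mir191, and 5 were farther from it than Mir425. Leaving out genes that share 18 bases kept 10 of the 20, 8 higher in replicate 2 and 2 higher in replicate 1. Of those 10, only 1 was farther than Mir425 from the median of the 274 genes then tested, and none was closer than Mir191. With no minimum count 2 of the 20, Mir103-1 and Mir24-1, were closer than Mir191, at log2 ratios of 0.03 and 0.02 and with at most 152 counts in a library.

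Mir151, the gene of the list nearest to Mir191 in level, had 9048 and 9619 CPM in replicates 1 and 2, a log2 ratio of 0.13. Mir423 had 2886 and 4158 CPM, and Mir26b had 18538 and 23082 CPM, with log2 ratios of 0.56 and 0.35. Mir25 had 215 and 93.4 CPM, a log2 ratio of -1.17. Of the 20 genes, 10 share 18 bases with another hairpin gene, among them Mir16-1, Mir26a-1 and Mir103-2, so reads that align to several places are missing from their counts and their values are uncertain. Mir191 and Mir425 share no such run with a miRNA gene elsewhere in the annotation.

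A change of ratio inside a neighbouring pair was not peculiar to Mir191 and Mir425. Across the 108 pairs of detected miRNA genes that follow each other on the same strand within 10 kb, the median absolute log2 change of the within-pair count ratio was 0.52, against 0.71 for Mir191 and Mir425. The change was smaller in 64 pairs and larger in 43, and the 95% interval excluded no change in 67 of the 108. Among the 18 pairs with at least 1000 counts of both genes in both libraries, 11 had a smaller change and 6 a larger one, and the interval excluded no change in 17. Among the 66 pairs in which neither gene shares 18 bases with another hairpin, the median was 0.58, with 37 smaller changes and 28 larger. All these pairs overlap where 3 or more genes follow each other, so they are not independent. Many of the 108 lie in a single stretch of chromosome 12, from Mir770 to Mir3072, and that stretch weighs heavily in the medians.

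The imbalance in read counts between the members was larger than in most pairs. The absolute log2 of the count ratio, averaged over the libraries, was 3.21 for Mir191 and Mir425 and had a median of 2.39 over the 108 pairs, with 38 pairs more unequal and 69 less. The same gene was ahead in both libraries in 96 of the 108 pairs, this one included.

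**Figure D4:**
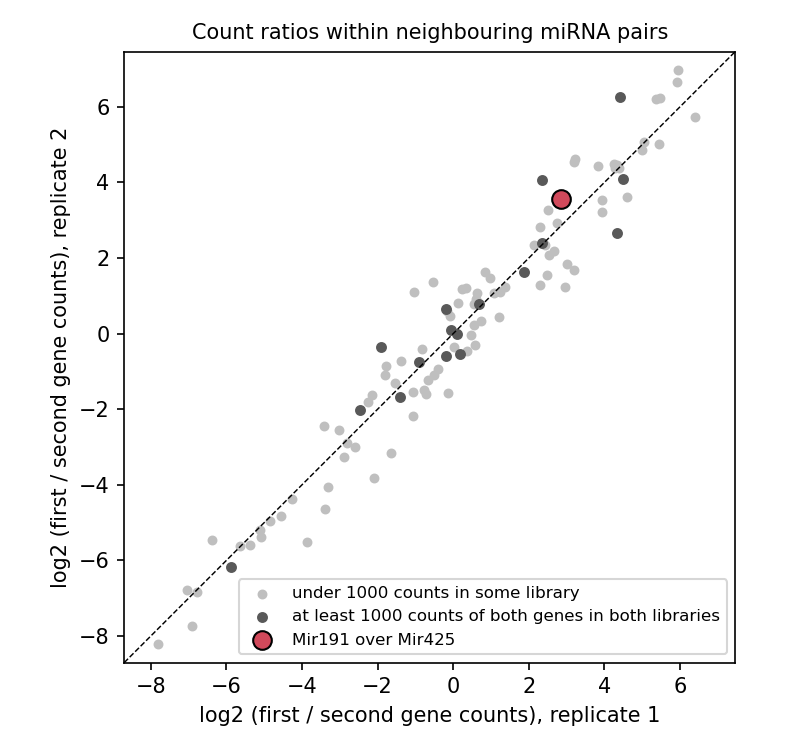
Log2 count ratio of the first to the second gene in position, in replicate 1 (x axis) and replicate 2 (y axis), for 108 neighbouring miRNA pairs, with pairs of at least 1000 counts throughout in dark grey and equality as a dashed line. Mir191 over Mir425 lies above the line, at 2.85 in replicate 1 and 3.56 in replicate 2.

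Pairs known to share a primary transcript showed changes of several sizes. In the pair Mir221 and Mir222 on chromosome X, the ratio was 2.10 in replicate 1 and 4.53 in replicate 2, a change of 2.15 (95% interval 1.93 to 2.40), larger than the 1.63 of Mir191 and Mir425 and with no overlap of intervals. For Mir143 and Mir145a, enriched in smooth muscle, the ratio was 20.1 in replicate 1 and 6.33 in replicate 2 (a factor of 0.316, 95% interval 0.302 to 0.329). For Mir25 and Mir93 it was 0.106 and 0.0403 (0.378, 0.320 to 0.446).

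Other pairs kept a ratio whose change could not be told from none. Mir132 and Mir212 had ratios of 34.8 and 36.7, a change of 1.06 (95% interval 0.765 to 1.48), although each gene on its own was lower in replicate 2, with log2 ratios of -1.37 and -1.44. Mir29a and Mir29b-1 had 226 and 295, a change of 1.31 (0.964 to 1.79), and Mir30e and Mir30c-1 had 32.0 and 28.8, a change of 0.900 (0.786 to 1.03). Mir132 and Mir212 show a pair that moved together, whereas Mir191 and Mir425 did not. The minor genes of these pairs had at most 486 counts in a library, fewer than the 1528 of Mir425, and the intervals are wider for it.

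In the other 2 comparison pairs the interval excluded no change. Mir532 and Mir362 had ratios of 12.7 and 16.5, a change of 1.30 (95% interval 1.01 to 1.68), and Mir15b and Mir16-2 had 4.89 and 2.44, a change of 0.499 (0.434 to 0.573). Mir16-2, Mir29b-1, Mir30e and Mir30c-1 each share 18 bases with another hairpin, which makes the ratios of their pairs uncertain.

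Finally, the counts of Mir191 depended on how strand was used in counting, and those of Mir425 did not. In the column of the deposited tables that ignores strand, Mir191 was listed at 0 in both libraries, and Mir425 at 2858 and 1528, equal to its own-strand counts. The opposite-strand column of Gm24083, the gene that covers Mir191 on the minus strand, held 20638 and 17999 counts, equal to the own-strand counts of Mir191, and its own-strand counts were 0 and 0. The strand-ignored tables put 399729 and 252074 reads in the class of ambiguous reads, and the Mir191 counts would be 5.16% and 7.14% of that class. With strand ignored, a ratio of the pair would be 0.

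Mir191 was among the most counted genes in this position. A miRNA gene on the opposite strand overlaps 64 of the 2202 genes. By own-strand counts Mir191 was the fourth of these in both libraries, after Mir126a, Mir378a and Mirlet7e. The strand-ignored counts of those 3 were 2 and 2, 0 and 0, and 0 and 0. Mir30e, a gene of the reference list, followed it, at 13469 and 13995 counts on its own strand and 0 and 0 with strand ignored.

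Per 1000000 of all reads in a table, unmapped and multiply aligned reads included, Mir191 was at 2104 in replicate 1 and 2574 in replicate 2, and Mir425 at 291 and 218. On that base Mir191 was higher in replicate 2, where fewer reads were unmapped. Mir425 was higher in replicate 1 on both bases. The ratio of the genes is the same on either base.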

How the data were processed

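Each deposited table gives, for every miRNA gene, raw read counts with strand ignored, on the own strand and on the opposite strand. The authors used mm10 and GENCODE M21, per the notes deposited beside the tables. The sources used here name neither aligner nor counting program. Which strand column is which was inferred from the column totals. That build is of C57BL/6J, and an effect of CAST/EiJ alleles on the counts was not tested. The 4 rows that name no gene stayed out of library sizes, and their shares are in the report. CPM are counts per 1000000 own-strand counts.

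The libraries were compared by a two-sided exact conditional binomial test (SciPy 1.17.1, Python 3.11.15; checked on simulated data) with TMM factors from edgeR 4.0.16 (R 4.3.3), a prior count of 0.5 in log2 ratios and Benjamini-Hochberg adjustment over genes with a summed count of at least 20. DESeq2 1.42.0 size factors were an alternative. Ratios of the pair were compared by Fisher's exact test, with exact conditional intervals. Folding used ViennaRNA 2.7.2. The sequences of both members matched RefSeq entries and GENCODE transcripts, and all 2202 gene identifiers matched GENCODE M21.

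Genes named are the members, 3 neighbours above and below in level, the 3 nearest in log2 ratio among genes with a mean count of at least 1000, 8 comparison pairs, the reference list, markers and genes sharing a seed. Others, such as the nearest genes on the chromosome and the genes overlapped on the opposite strand, were named after their values were seen. The members and lists were chosen with earlier results of these data known.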

Additional observations from a re-analysis of the deposited data

How the results depend on the processing

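The Mir425 log2 ratio kept its direction and stayed past the threshold under all 8 alternatives (-0.82 to -0.69), and the number of genes called stayed within 1.5 times the reported 230 (173 to 228). The share called did change, because the number of genes tested changed. With no minimum count 228 of 724 genes were called, and with a minimum of 200 summed counts 180 of 229. The Mir191 log2 ratio of 0.0170 reversed with DESeq2 size factors (-0.0753), total counts (-0.0204) and, added after seeing the data, TMM factors over all genes (-0.12), since a scaling factor shifts every gene alike. Other minimum counts, a prior count of 5 and leaving out genes sharing 18 bases did not turn it. With strand ignored, the level of Mir191 and the ratio were 0 (its log2 ratio and the change of ratio then have no value), and the mean level of Mir425 was 1027 CPM. Per 1000000 of all reads the mean levels were 2339 for Mir191 and 254.9 for Mir425. Leaving out each replicate gave 7856 to 7968 CPM for Mir191, 667 to 1103 CPM for Mir425 and 7.22 to 11.8 for the ratio. No paired analysis was possible because there is 1 group. With 2 libraries the SD itself is imprecise, and biological spread is not in the p-values.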
